A study of Mus musculus with 18 samples.

Results

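The genes of fibrillar collagens, of the proteins that decorate and cross-link their fibrils, and of fibronectin were followed through the differentiation of mouse embryonic stem cells with and without a working Pax7 gene. The 10 genes were taken by symbol: Col1a1, Col1a2, Col3a1, Col5a1, Col5a2, Lox, Dcn, Bgn, Lum and Fn1, all of which were found among 22180 measured genes. Where a gene had several probe sets, the brightest by its mean across the 18 arrays was read. The cells, from an F1 of C57Bl6N and 129Sv, were of genotype Pax7+/+ or Pax7-/- and gave 3 arrays per genotype at each of 3 times. Undifferentiated cells in medium with LIF were taken at day 0. The later samples, grown without LIF and with RA and ITS, were embryoid bodies (day 7) and their outgrowths (day 21). How many clones stood for each genotype, and how Pax7 was altered, are not given in the sources used here. The samples are titled biological replicates without a statement of how they were kept apart, so that each p-value reflects no more than the spread among these samples, which may be technical.

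Fibrillar collagens are secreted as procollagen, trimmed outside the cell and assembled into rope-like fibrils. Collagen I is built of chains from Col1a1 and Col1a2, collagen III of the chain from Col3a1, and collagen V, whose chains come from Col5a1 and Col5a2, sits within the fibrils and limits their width. Decorin (Dcn), biglycan (Bgn) and lumican (Lum) are small leucine-rich proteoglycans that bind fibrils, and decorin also binds TGF-beta. Lysyl oxidase (Lox) starts the cross-links that make fibrils stiff. Fibronectin (Fn1) is a ligand of integrins on which collagen is laid down. These genes are known for strong expression in fibroblasts and other mesenchymal cells, and fibronectin is made by many embryonic cells as well.

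Promoter sequence was at hand for 4 of the 10 members in the RefSeq table of build GRCm38.p6, and is shown as the 250 bases before the gene start, since Col1a2 and Col5a1 both rose from day 7 to day 21 in Pax7+/+ cells, while Bgn fell from day 0 to day 7 and Col3a1 passed no test. Capitals mark matches on either strand to 5 motifs, namely the CCAAT box, the GC box with letters GGGCGG, the TATA box with letters TATAAA, the AP-1 motif with letters TGACTCA and the TEAD motif with letters GGAATG.
Col1a2, chr6:4505368-4505617, plus strand: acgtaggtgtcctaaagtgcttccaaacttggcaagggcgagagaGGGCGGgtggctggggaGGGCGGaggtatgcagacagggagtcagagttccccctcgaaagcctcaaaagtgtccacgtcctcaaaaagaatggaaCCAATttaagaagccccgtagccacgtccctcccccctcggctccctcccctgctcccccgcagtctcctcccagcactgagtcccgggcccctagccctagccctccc
Col5a1, chr2:27886175-27886424, plus strand: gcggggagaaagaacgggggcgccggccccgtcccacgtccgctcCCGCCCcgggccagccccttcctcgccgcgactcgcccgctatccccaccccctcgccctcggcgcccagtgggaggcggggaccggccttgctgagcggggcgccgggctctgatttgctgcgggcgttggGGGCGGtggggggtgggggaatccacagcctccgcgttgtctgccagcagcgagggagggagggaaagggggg
Col3a1, chr1:45311288-45311537, plus strand: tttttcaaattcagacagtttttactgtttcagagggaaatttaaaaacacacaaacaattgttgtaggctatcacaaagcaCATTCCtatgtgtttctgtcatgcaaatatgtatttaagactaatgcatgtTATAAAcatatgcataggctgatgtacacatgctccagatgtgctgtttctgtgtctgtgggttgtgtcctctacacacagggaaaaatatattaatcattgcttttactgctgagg
Bgn, chrX:73483351-73483600, plus strand: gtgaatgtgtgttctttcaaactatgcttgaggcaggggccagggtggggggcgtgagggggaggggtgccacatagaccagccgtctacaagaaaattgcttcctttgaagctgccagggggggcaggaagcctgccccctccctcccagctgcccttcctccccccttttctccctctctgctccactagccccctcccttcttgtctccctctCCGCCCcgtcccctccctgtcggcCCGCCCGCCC

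GGGCGG or its complement was found 2 times in the Col1a2 window, 2 times in that of Col5a1 and 3 times in that of Bgn, where 2 of the matches overlap each other, and in 32.7% of 32851 promoter windows of this length. CCAAT was found in the Col1a2 window, and in 33.8% of all windows. TATAAA and the complement of GGAATG were found in the Col3a1 window, and in 12.4% and 12.6% of all windows. TGACTCA, found in 4.46% of all windows, was in none of the 4. The Col3a1 window held 35.2% G and C, against 62% for Col1a2, 64.4% for Bgn, 76.4% for Col5a1 and a median of 52.4% over all windows. The matches are descriptions of these letters only.

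The values of 10 arrays, called narrow here, had an SD over probe sets of 1.37 to 1.45 log2 and those of the other 8, called wide, of 1.79 to 1.85, and each group held arrays of both sets. Gene values correlated at 0.911 or more within a set and at 0.674 to 0.822 between sets. All differences below were therefore fitted with limma with the set as a block, they are on the log2 scale with a standard error and 3 arrays per group. A call needed an adjusted p below 0.05, by the Benjamini-Hochberg method across 22180 genes. Of 100 tests on the members (10 genes in 10 comparisons) 15 passed. The 15 had the same sign on the narrow and on the wide arrays alone, and without the block 0 of them passed (adjusted p between 0.124 and 1). In that fit at most 15 of all 22180 genes passed in any comparison, so the loss does not set the members apart. The block assumes 1 difference for both sets, so the difference within each set is given beside the fit. Pax7 itself did not separate the genotypes: on narrow arrays its values were 5.61 to 6.35 in Pax7+/+ and 5.86 to 6.37 in Pax7-/-, and on wide arrays 4.68 to 5.52 and 4.76 to 5.53. Which part of Pax7 its probe set reads, and whether that part was altered, are not given in the sources used here, so it does not check the labels. On day 0 all 6 markers of undifferentiated stem cells that were looked up, Pou5f1, Nanog, Zfp42, Esrrb, Tdgf1 and Fgf4, read above the array median on all 6 arrays. So did all 7 markers of parietal endoderm, 5 of 6 of smooth muscle and 7 of 11 of fibroblasts and mesenchyme. For bone and cartilage it was 3 of 9, for neural cells 3 of 6, for visceral endoderm 1 of 6 and for endothelium 1 of 5. This reading therefore does not single out undifferentiated cells.

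**Figure D1:**
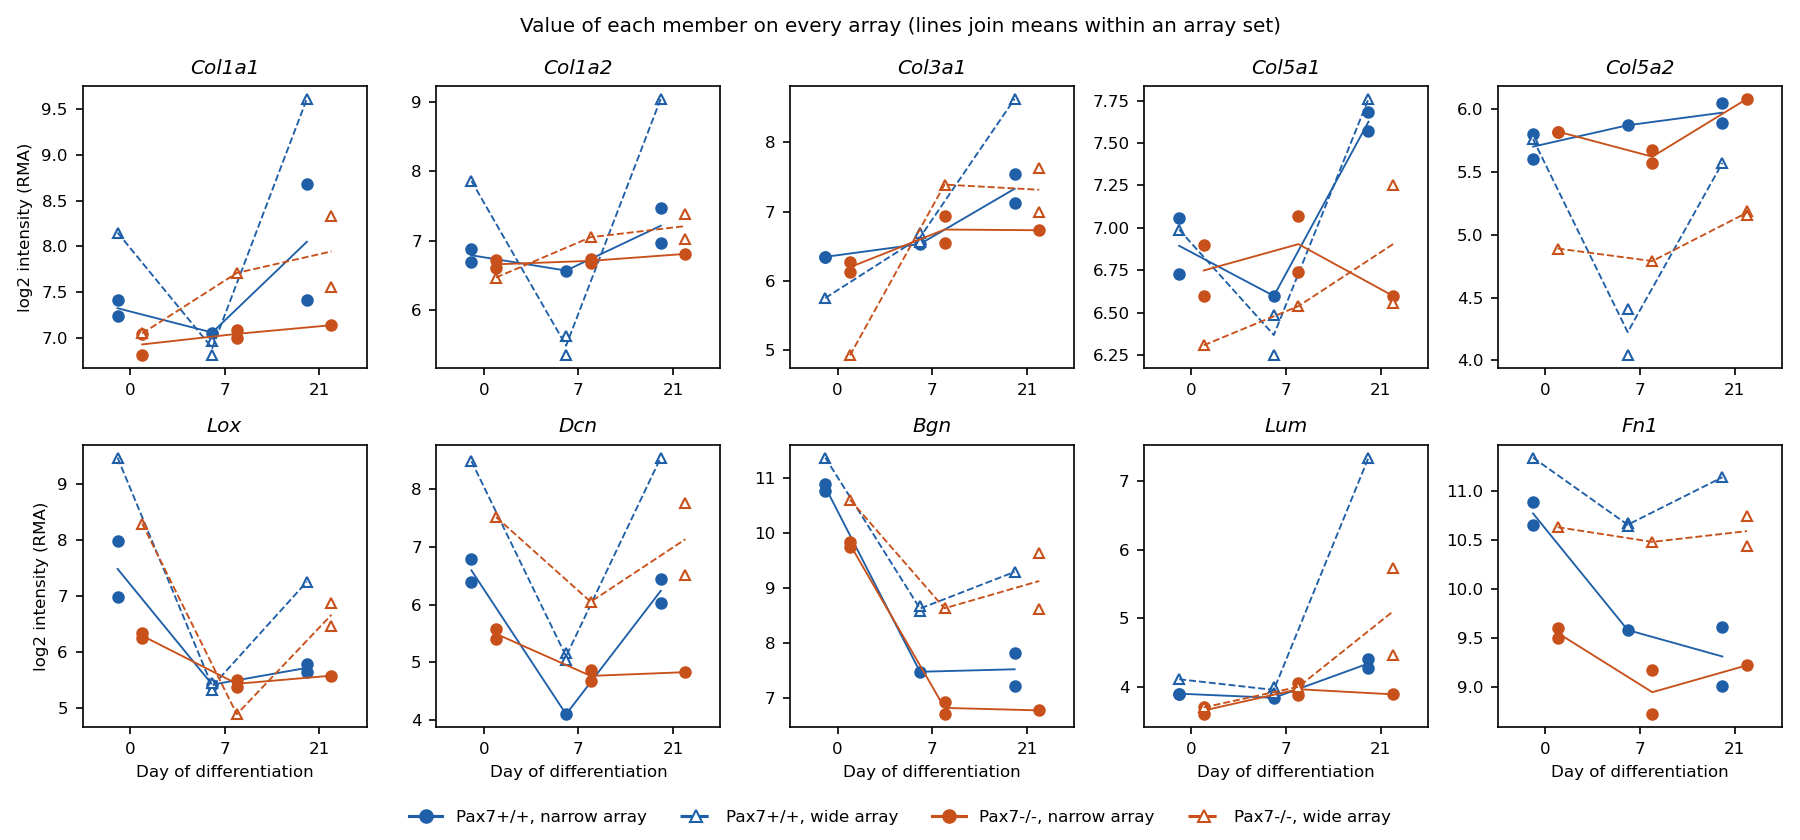
Log2 intensity (vertical axis) of each member on all 18 arrays against day of differentiation (horizontal axis), with Pax7+/+ in blue and Pax7-/- in orange, narrow arrays as filled circles and wide arrays as open triangles, and lines through the means within a set. Bgn, Lox and Dcn are lower at day 7 than at day 0 in both genotypes, while Col1a1, Col1a2, Col5a1 and Dcn climb from day 7 to day 21 in Pax7+/+ (for Dcn by 2.84 log2).

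From day 0 to day 7 the genes of biglycan and lysyl oxidase fell in both genotypes. In Pax7+/+ cells 4 of the 10 members fell (Bgn, Lox, Dcn and Fn1) and 0 rose, where 5.69% of all genes passed, 3.14% as fallen and 2.54% as risen. In Pax7-/- cells 2 fell (Bgn and Lox) and 0 rose, where 3.86% of all genes passed, 1.82% as fallen and 2.05% as risen. The median of the 10 members was -0.97 in Pax7+/+, where the median of all genes was -0.00134, and 0.01 in Pax7-/-, where the median of all genes was -0.02.

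Bgn, whose product is a proteoglycan of fibrils and of bone, was read at 10.89 and 10.76 on the narrow arrays and 11.36 on the wide array of Pax7+/+ day 0. At day 7 it read 7.48 on the narrow array and 8.58 and 8.67 on the wide arrays. Every day 7 value lay below every day 0 value. Bgn fell by 3.23 ± 0.33 log2, or 9.39-fold (adjusted p = 1.83e-05), and the difference was -3.35 on narrow and -2.74 on wide arrays. In Pax7-/- the day 0 values were 9.84 and 9.74 (narrow) and 10.60 (wide), and the day 7 values 6.94 and 6.71 (narrow) and 8.63 (wide). Again the days did not overlap, and Bgn fell by 2.63 ± 0.32, or 6.21-fold (adjusted p = 0.000158), with -2.96 on narrow and -1.97 on wide arrays. The second Bgn probe set had a mean of 7.43, above 92.3% of gene means. On narrow and wide arrays it gave -0.46 and -2.42 in Pax7+/+, and -0.21 and -1.36 in Pax7-/-. The size of the fall on narrow arrays thus depended on the probe set. Bgn stayed low at day 21, where Pax7+/+ read 7.23 and 7.82 (narrow) and 9.29 (wide) and Pax7-/- 6.78 (narrow), 9.63 and 8.62 (wide). From day 7 to day 21 its difference was 0.34 ± 0.33 in Pax7+/+ and 0.45 ± 0.33 in Pax7-/- (adjusted p = 0.659 and 0.66).

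Lox read 7.98 and 6.98 (narrow) and 9.47 (wide) in Pax7+/+ at day 0, and 5.41 (narrow), 5.32 and 5.44 (wide) at day 7. The days did not overlap, and the 3 arrays of day 7 lay close together whichever set they belonged to. Lox fell by 3.09 ± 0.45, or 8.50-fold (adjusted p = 0.000526), with -2.07 on narrow and -4.09 on wide arrays. In Pax7-/- it read 6.33 and 6.24 (narrow) and 8.29 (wide) at day 0, and 5.36 and 5.49 (narrow) and 4.88 (wide) at day 7. These days did not overlap either, and Lox fell by 1.71 ± 0.44, or 3.27-fold (adjusted p = 0.0402). The fall in Pax7-/- was -0.86 on narrow and -3.40 on wide arrays. It passed in 7 of 18 fits with 1 array left out: without Pax7-/- day 0 replicate 2 it was -1.31 (adjusted p = 0.252), without Pax7-/- day 7 replicate 2 it was -1.09 (adjusted p = 0.228), and the other 9 fits in which Lox did not pass had adjusted p between 0.0502 and 0.0598. Of these 9, 3 left out Pax7-/- day 0 replicates 1 or 3 or Pax7-/- day 7 replicate 1, and 6 left out an array outside the comparison (Pax7+/+ day 0 replicate 1, Pax7+/+ day 7 replicates 2 and 3, Pax7+/+ day 21 replicate 3, and Pax7-/- day 21 replicates 2 and 3).

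Dcn had values of 6.80 and 6.39 (narrow) and 8.49 (wide) in Pax7+/+ at day 0. At day 7 these were 4.10 (narrow), 5.17 and 5.04 (wide). The days did not overlap, and Dcn fell by 3.06 ± 0.31, or 8.31-fold (adjusted p = 1.58e-05), with -2.49 on narrow and -3.39 on wide arrays. In Pax7-/- Dcn read 5.58 and 5.41 (narrow) and 7.52 (wide) at day 0 and 4.67 and 4.86 (narrow) and 6.05 (wide) at day 7. Each set was lower at day 7, but across sets the days overlapped and the difference of -0.98 ± 0.30 did not pass (adjusted p = 0.0855). It passed after quantile normalization (-0.95, adjusted p = 0.032), after all arrays had been scaled to the same SD and median (-1.0, adjusted p = 0.024), and without Pax7-/- day 21 replicate 2 (adjusted p = 0.0274).

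Fn1 fell by less. In Pax7+/+ it read 10.89 and 10.65 (narrow) and 11.34 (wide) at day 0 and 9.58 (narrow), 10.67 and 10.64 (wide) at day 7. The wide arrays of day 7 reached the lower narrow array of day 0, and within each set day 7 was lower. Fn1 fell by 1.08 ± 0.22, or 2.11-fold (adjusted p = 0.00854), with -1.18 on narrow and -0.69 on wide arrays. In Pax7-/- Fn1 went from 9.60 and 9.50 (narrow) and 10.63 (wide) to 8.72 and 9.17 (narrow) and 10.48 (wide), a difference of -0.45 ± 0.22 that did not pass (adjusted p = 0.315).

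The 5 collagen genes did not pass over this step in either genotype. In Pax7+/+ the differences were -1.43 ± 0.41 for Col1a2 (adjusted p = 0.0517), -0.86 ± 0.33 for Col1a1, -0.69 ± 0.24 for Col5a2, -0.45 ± 0.20 for Col5a1 and 0.40 ± 0.39 for Col3a1. On narrow and wide arrays Col1a2 gave -0.22 and -2.38, Col1a1 -0.27 and -1.26, and Col5a2 0.16 and -1.53. Col5a1 gave -0.30 and -0.62, and Col3a1 0.18 and 0.87. Col1a2 was the closest to the threshold and lay on the other side of it under several other settings, with adjusted p = 0.0397 after median centring, 0.0285 after scaling to the same SD and median, 0.0354 with the dimmest genes left out, 0.0426 with the trend option, 0.0413 without Pax7+/+ day 21 replicate 1, 0.0169 without Pax7+/+ day 21 replicate 2, 0.0466 without Pax7-/- day 0 replicate 2 and 0.00255 without Pax7+/+ day 7 replicate 1, where its difference was -2.12. This last array was the narrow one of its group, and Col5a2 passed without it too (-1.09, adjusted p = 0.00746). In Pax7-/- the largest collagen difference was that of Col3a1, 1.18 ± 0.38 (adjusted p = 0.105), which was 0.54 on narrow and 2.47 on wide arrays. Col3a1 passed there after quantile normalization (1.02, adjusted p = 0.0167), after scaling to the same SD and median (1.1, adjusted p = 0.0348) and without Pax7+/+ day 21 replicate 2 (adjusted p = 0.045).

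**Figure D2:**
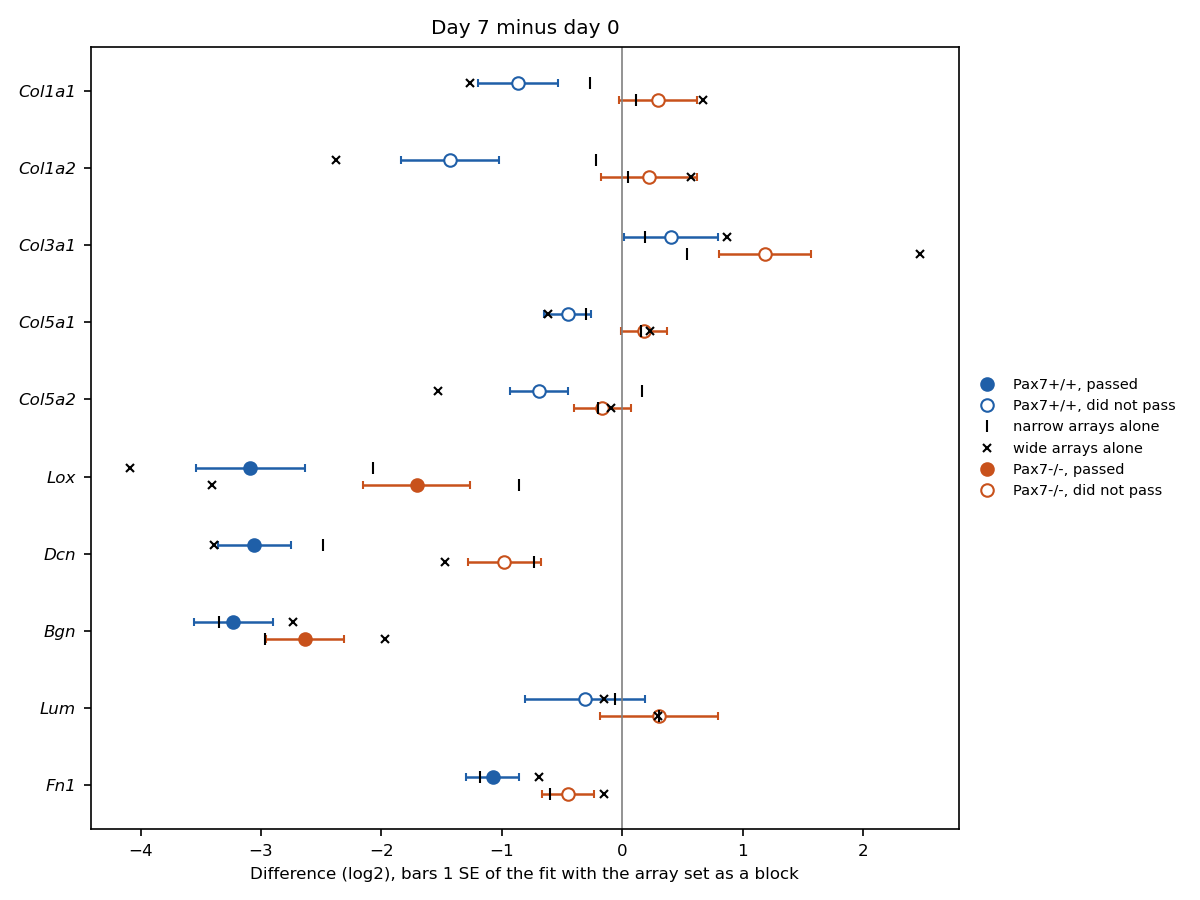
Difference between day 7 and day 0 (log2, horizontal axis) for each member (vertical axis) in Pax7+/+ (blue) and Pax7-/- (orange), with bars of 1 standard error, filled points for members that passed, and ticks and crosses for the narrow and the wide arrays alone. Bgn passed in both genotypes (-3.23 and -2.63), as did Lox, whereas Dcn and Fn1 passed in Pax7+/+.

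From day 7 to day 21 both collagen I genes, Col5a1 of collagen V and the decorin gene rose in Pax7+/+ outgrowths. There 4 of the 10 members rose (Dcn, Col1a1, Col1a2 and Col5a1) and 0 fell, where 5.85% of all genes passed, 1.37% as risen and 4.48% as fallen. In Pax7-/- outgrowths 0 of 10 passed by limma and 0 at an unadjusted p under 0.05, where 0.834% of all 22180 genes passed and 2685 had an unadjusted p under 0.05. The median of the members was 1.2 in Pax7+/+ and 0.33 in Pax7-/-, and that of all genes 0.01 in both. All 10 differences were above 0 in the fit in each genotype. In Pax7+/+ 9 were above 0 on narrow and on wide arrays alone, and Fn1 differed in sign. In Pax7-/- 6 were above 0 in both sets. There Col3a1 was below 0 in both (-0.01 on narrow and -0.08 on wide arrays). Col5a1 (-0.31 and 0.36), Bgn and Lum differed in sign between the sets.

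Dcn had the largest of these rises. Its day 21 values in Pax7+/+ were 6.03 and 6.45 (narrow) and 8.55 (wide), all above the day 7 values given above. The rise was 2.84 ± 0.31, or 7.16-fold (adjusted p = 6.55e-05), with 2.14 on narrow and 3.44 on wide arrays. In Pax7-/- Dcn read 4.83 (narrow), 7.76 and 6.51 (wide) at day 21, which overlapped day 7, and the difference was 0.57 ± 0.31 (adjusted p = 0.496), with 0.06 on narrow and 1.09 on wide arrays.

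Col1a1, the gene of the main collagen I chain, read 7.41 and 7.24 (narrow) and 8.15 (wide) at day 0 in Pax7+/+. At day 7 it read 7.06 (narrow), 6.97 and 6.81 (wide), and at day 21 7.42 and 8.68 (narrow) and 9.61 (wide). Day 21 lay above day 7 on every array, though the 2 narrow arrays of day 21 differed from each other by more than the lower of them differed from day 7. The rise was 1.84 ± 0.33, or 3.57-fold (adjusted p = 0.00373), with 1.00 on narrow and 2.72 on wide arrays. In Pax7-/- Col1a1 read 7.04 and 6.82 (narrow) and 7.05 (wide) at day 0, 7.09 and 7.00 (narrow) and 7.71 (wide) at day 7, and 7.14 (narrow), 8.33 and 7.56 (wide) at day 21. On the narrow arrays the 3 days lay close together, and the difference from day 7 to day 21 was 0.20 ± 0.33 (adjusted p = 0.899).

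Col1a2, the gene of the second collagen I chain, read 6.88 and 6.70 (narrow) and 7.86 (wide), then 6.57 (narrow), 5.63 and 5.35 (wide), then 6.96 and 7.47 (narrow) and 9.04 (wide) at days 0, 7 and 21 of Pax7+/+. No day 7 value reached any value of the other days. The rise to day 21 was 2.11 ± 0.41, or 4.31-fold (adjusted p = 0.00548), and it was 0.64 on narrow and 3.55 on wide arrays. With the narrow arrays alone neither Col1a1 nor Col1a2 passed (adjusted p = 0.269 and 0.162). In Pax7-/- Col1a2 read 6.60 and 6.72 (narrow) and 6.47 (wide), then 6.68 and 6.74 (narrow) and 7.05 (wide), then 6.81 (narrow), 7.39 and 7.03 (wide), and the last step came to 0.12 ± 0.41 (adjusted p = 0.96).

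Col5a1, the gene of a collagen V chain, read at like levels on both array sets. Its values in Pax7+/+ were 6.73 and 7.06 (narrow) and 6.99 (wide) at day 0, 6.60 (narrow), 6.49 and 6.25 (wide) at day 7, and 7.57 and 7.68 (narrow) and 7.76 (wide) at day 21. Every day 21 value was above every other value of this genotype. The rise from day 7 was 1.2 ± 0.20, or 2.29-fold (adjusted p = 0.0018), with 1.03 on narrow and 1.39 on wide arrays. The second Col5a1 probe set, of lower mean, gave 0.05 and 0.32. In Pax7-/- Col5a1 read 6.60 and 6.90 (narrow) and 6.31 (wide), then 7.07 and 6.74 (narrow) and 6.54 (wide), then 6.60 (narrow), 7.25 and 6.56 (wide). These 3 days overlapped, and the step to day 21 was 0.05 ± 0.20 (adjusted p = 0.97).

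The remaining members did not pass over this step in Pax7+/+. Col3a1 went from 6.53 (narrow), 6.69 and 6.56 (wide) to 7.12 and 7.54 (narrow) and 8.63 (wide), without overlap, and the difference was 1.21 ± 0.39 (adjusted p = 0.0836). It passed after quantile normalization (1.25, adjusted p = 0.00485) and after scaling to the same SD and median (1.25, adjusted p = 0.0177), as well as without Pax7+/+ day 21 replicate 1 (1.5, adjusted p = 0.0461) or Pax7-/- day 0 replicate 2 (1.31, adjusted p = 0.0153). Lum read 3.84 (narrow), 4.0 and 3.91 (wide) at day 7 and 4.28 and 4.40 (narrow) and 7.34 (wide) at day 21. Lum was below the array median on 16 of 18 arrays, and its difference of 1.68 ± 0.50 (adjusted p = 0.0604) was 0.50 on narrow and 3.38 on wide arrays, the last from 1 array at day 21. Lum passed without Pax7+/+ day 21 replicate 1 (2.06, adjusted p = 0.0321) or replicate 3 (adjusted p = 0.0435), after scaling to the same SD and median (1.52, adjusted p = 0.0356) and with the trend option (adjusted p = 0.0498). Lox came to 1.17 ± 0.45 (adjusted p = 0.159), Col5a2 to 0.81 ± 0.24 (adjusted p = 0.0635) and Fn1 to 0.04 ± 0.22 (adjusted p = 0.961). On narrow and wide arrays Lox gave 0.30 and 1.87, and Col5a2 0.10 and 1.34. Fn1 gave -0.27 and 0.49, of opposite sign. Col5a2 passed without Pax7+/+ day 0 replicate 3 (0.75, adjusted p = 0.0279) or Pax7+/+ day 7 replicate 1 (1.21, adjusted p = 0.00453) and with the dimmest genes left out (adjusted p = 0.0477), and Lox after quantile normalization (0.95, adjusted p = 0.046).

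**Figure D3:**
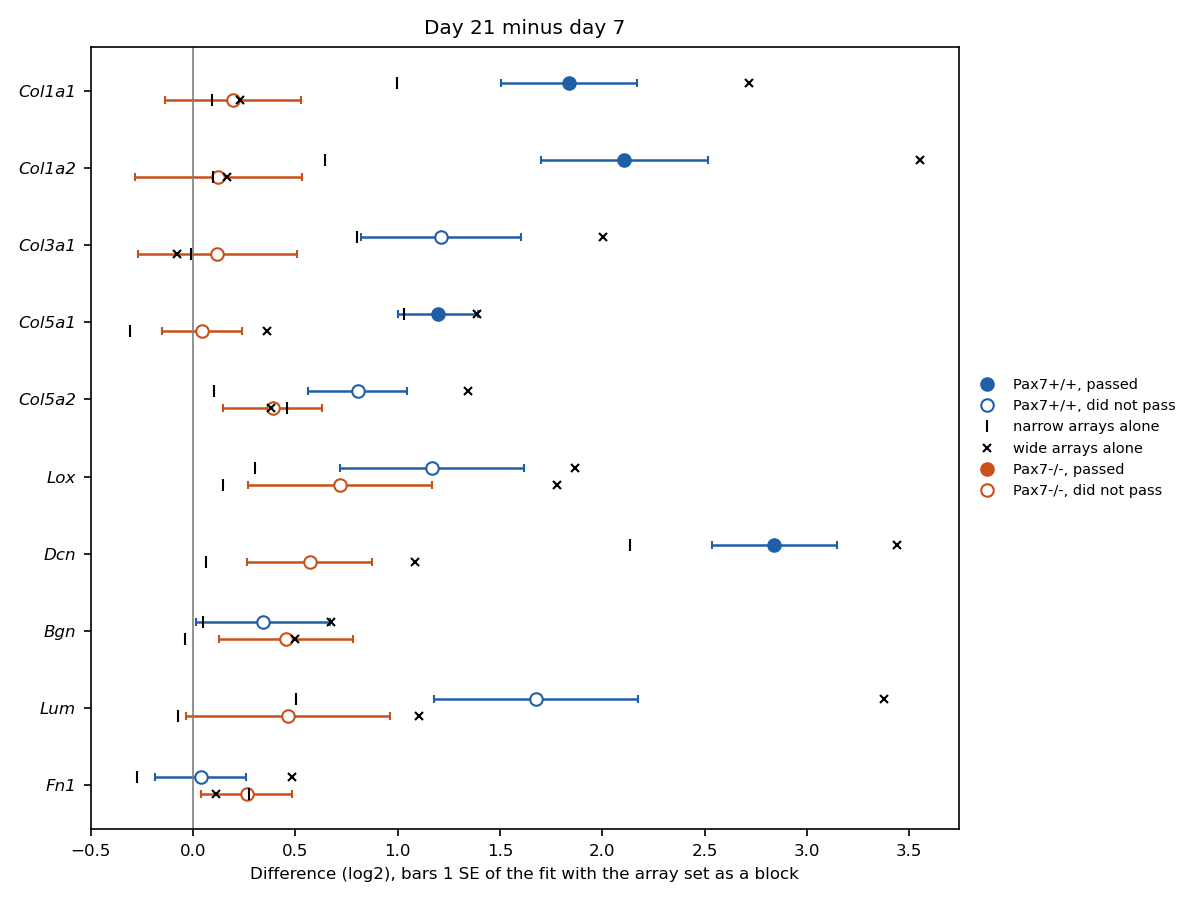
Difference between day 21 and day 7 (log2, horizontal axis) for each member (vertical axis), drawn as for the earlier step. In Pax7+/+ (blue) Dcn (2.84), Col1a2 (2.11), Col1a1 (1.84) and Col5a1 (1.2) passed, and in Pax7-/- (orange) the differences ran from 0.05 to 0.72 with none passing.

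Between genotypes at day 0, all 10 members read lower in Pax7-/- than in Pax7+/+ in the fit, with differences of -1.19 to -0.21, and 1 (Fn1) passed, where 1.28% of all genes passed, 0.893% as lower and 0.388% as higher. The median of the members was -0.59 and that of all genes 0.01. Fn1 read 9.60, 9.50 and 10.63 in Pax7-/- against 10.89, 10.65 and 11.34 in Pax7+/+, and these did not overlap. The difference of Fn1 was -1.05 ± 0.22 log2, a 2.08-fold lower level (adjusted p = 0.0256), with -1.22 on narrow and -0.72 on wide arrays. The call was lost without Pax7+/+ day 0 replicate 1 (-0.87, adjusted p = 0.129) or 2 (-1.0, adjusted p = 0.0928) and without Pax7-/- day 0 replicate 1 (-1.11, adjusted p = 0.0661), 2 (-0.99, adjusted p = 0.111) or 3 (-1.05, adjusted p = 0.0851).

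Bgn too did not overlap between genotypes at day 0 (9.84, 9.74 and 10.60 against 10.89, 10.76 and 11.36), with a difference of -0.95 ± 0.32 (adjusted p = 0.219). On narrow and wide arrays it was -1.04 and -0.76, against -0.18 and -1.04 for the second Bgn probe set. Dcn came to -1.05 ± 0.30 (adjusted p = 0.116) and Lox to -1.19 ± 0.44 (adjusted p = 0.274). Both were lower in Pax7-/- within each set, with -1.09 and -0.97 for Dcn and -1.19 and -1.18 for Lox on narrow and wide arrays. After quantile normalization Dcn (-1.28, adjusted p = 0.0125) and Lox (-1.23, adjusted p = 0.0216) passed as well, and Dcn also after scaling to the same SD and median (-1.07, adjusted p = 0.0353) and without Pax7-/- day 21 replicate 2 (adjusted p = 0.0374). The collagen genes ranged from -0.63 ± 0.33 for Col1a1 to -0.21 ± 0.24 for Col5a2, which was 0.12 on narrow and -0.87 on wide arrays.

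At day 7 none of the 10 members passed between genotypes by limma, where 0.627% of all genes passed. At an unadjusted p under 0.05 there were 2 members, and 2209 of all 22180 genes. The 2 were Col1a2 (1.11 ± 0.41, adjusted p = 0.313) and Dcn (1.02 ± 0.31, adjusted p = 0.167), both higher in Pax7-/-. The Dcn value of the fit lies above those within the sets, 0.66 on narrow and 0.94 on wide arrays. For Col1a2 the narrow arrays gave 0.14 and the wide ones 1.56, and without Pax7+/+ day 7 replicate 1 it passed (1.80, adjusted p = 0.0271). In the fit 8 members were above 0 and 2, Bgn (-0.35 ± 0.33) and Fn1 (-0.43 ± 0.22), below. For Lox the fit gave 0.19 ± 0.45 although the sets gave 0.02 and -0.50.

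At day 21 all 10 members again read lower in Pax7-/- in the fit, with differences of -1.25 to -0.10 and a median of -0.76 against -0.01 for all genes. Dcn and Col5a1 passed as lower and 0 members as higher, where 4.89% of all genes passed, 1.07% as lower and 3.82% as higher. The difference of Dcn was -1.25 ± 0.31, a 2.37-fold lower level (adjusted p = 0.0267), and it was -1.41 on narrow and on wide arrays. The Dcn values, listed above, did not overlap within a set but did across sets. Dcn did not pass without Pax7+/+ day 21 replicate 2 (-1.01, adjusted p = 0.15) or 3 (-1.23, adjusted p = 0.0694) or without Pax7-/- day 21 replicate 1 (-1.01, adjusted p = 0.13) or 3 (-1.03, adjusted p = 0.117).

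The difference of Col5a1 at day 21 was -0.84 ± 0.20, a 1.79-fold lower level (adjusted p = 0.0199), with -1.03 on narrow and -0.86 on wide arrays, and its values did not overlap between genotypes. The second Col5a1 probe set gave -0.07 and -0.22, and with the probe sets averaged the difference was -0.48 and did not pass (adjusted p = 0.0807). It did not pass without Pax7+/+ day 21 replicate 2 (-0.74, adjusted p = 0.101), Pax7-/- day 21 replicate 1 (-0.66, adjusted p = 0.113) or Pax7-/- day 21 replicate 3 (-0.74, adjusted p = 0.0858). Col1a1 had a difference of -1.11 ± 0.33 (adjusted p = 0.0728), and it passed after quantile normalization (-1.21, adjusted p = 0.0235), after scaling to the same SD and median (-1.19, adjusted p = 0.0282), without Pax7+/+ day 21 replicate 1 (-1.56, adjusted p = 0.00373) and without Pax7+/+ day 7 replicate 1 (-1.16, adjusted p = 0.0452). Lum came to -0.90 ± 0.50, Col1a2 to -0.88 ± 0.41 and Col3a1 to -0.69 ± 0.39, each larger on wide arrays (-2.24, -1.82 and -1.31) than on narrow ones (-0.45, -0.41 and -0.60). Lox, Bgn, Fn1 and Col5a2 lay between -0.26 and -0.10. Col5a2 was 0.11 on narrow and -0.39 on wide arrays. In the fit without the block Lox, Bgn and Fn1 came to 0.08, 0.23 and 0.21, above 0.

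**Figure D4:**
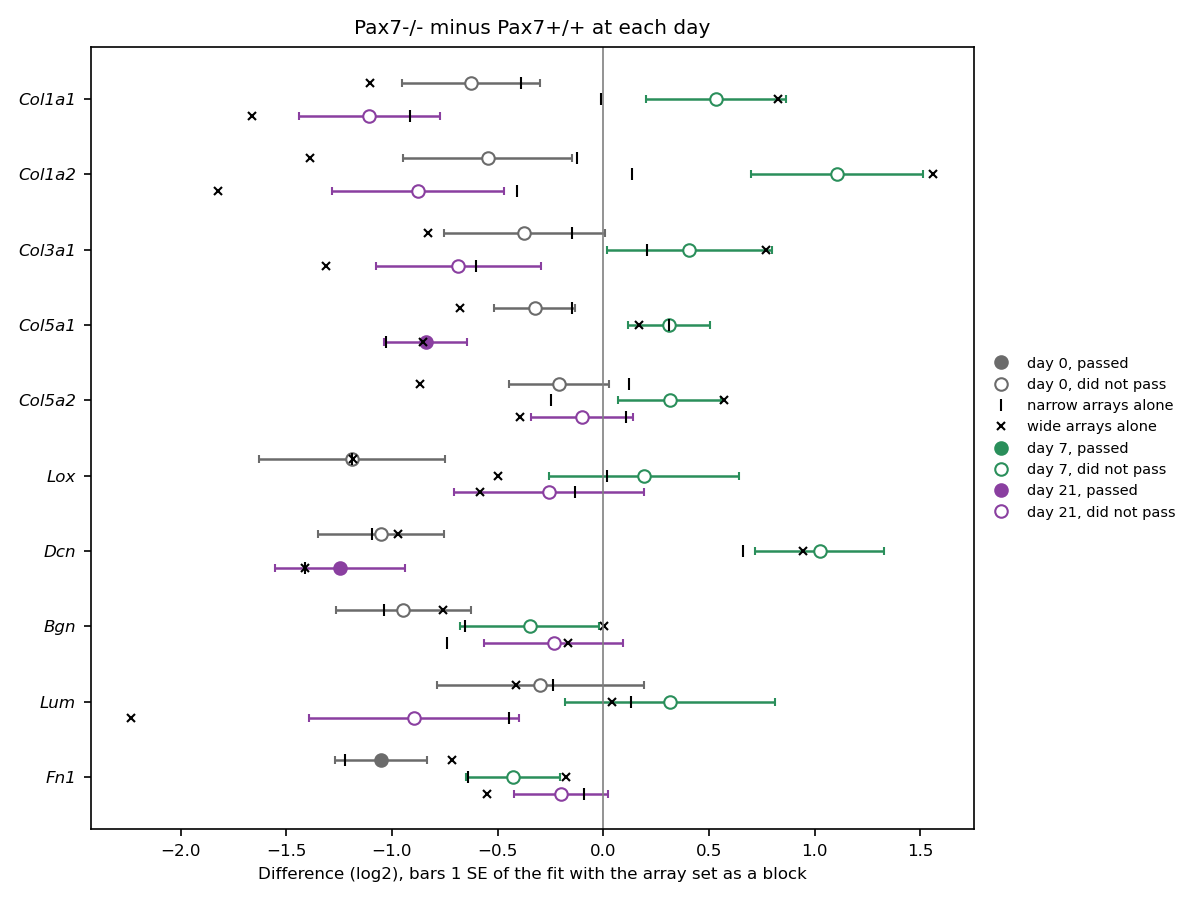
Pax7-/- minus Pax7+/+ (log2, horizontal axis) for each member (vertical axis) at day 0 (grey), day 7 (green) and day 21 (purple), with bars of 1 standard error, filled points for members that passed, and ticks and crosses for the narrow and the wide arrays alone. In the fit all members lie below 0 at days 0 and 21, and 8 of 10 above 0 at day 7. Fn1 at day 0 and Dcn and Col5a1 at day 21 passed.

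Whether the genotype difference itself changed between days was tested in the same fit. Dcn passed over both steps: its genotype difference moved up by 2.08 ± 0.43 from day 0 to day 7 (adjusted p = 0.0426), where 0.482% of all genes passed, and by -2.27 ± 0.44 from day 7 to day 21 (adjusted p = 0.025), where 0.911% of all genes passed. No other member passed over either step. The steps share the day 7 arrays, so they are not independent of each other. On narrow arrays the changes of Dcn were 1.76 and -2.08, on wide arrays 1.91 and -2.36. The first call of Dcn passed in 7 of 18 fits with 1 array left out and the second in 10 of 18, with values over all 18 fits of 1.92 to 2.45 (adjusted p between 0.00967 and 0.138) and of -2.70 to -2.0 (adjusted p between 0.00608 and 0.0903).

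The 11 arrays whose absence ended the first Dcn call were all 6 of day 0, Pax7+/+ day 7 replicates 2 and 3, Pax7-/- day 7 replicates 1 and 3, and Pax7+/+ day 21 replicate 3. The 8 of the second were Pax7+/+ day 7 replicates 2 and 3, Pax7-/- day 7 replicates 1 and 3, Pax7+/+ day 21 replicates 2 and 3, and Pax7-/- day 21 replicates 1 and 3. For Col5a1 the second step gave -1.15 ± 0.28 (adjusted p = 0.0745), and it passed after quantile normalization (-1.21, adjusted p = 0.0241), after scaling to the same SD and median (-1.26, adjusted p = 0.0394) and without Pax7-/- day 21 replicate 2 (-1.36, adjusted p = 0.0189). Col1a1 came to -1.64 ± 0.48 and Col1a2 to -1.98 ± 0.59 over that step (adjusted p = 0.161 and 0.167). Both were larger on wide arrays (-2.49 and -3.39) than on narrow ones (-0.90 and -0.55). Col1a1 passed without Pax7+/+ day 21 replicate 1 (-2.05, adjusted p = 0.0202). Col1a2 passed without Pax7+/+ day 7 replicate 1 (-2.77, adjusted p = 0.0198), the narrow array of its group. Without that last array Col1a2 also passed over the step from day 0 to day 7 (2.34, adjusted p = 0.0264). From day 0 to day 21 as a whole 0 of 10 members passed by limma, 1 (Fn1, 0.85 ± 0.31, adjusted p = 0.216) at an unadjusted p under 0.05. Over all 22180 genes 1.86% passed, and 3025 had an unadjusted p under 0.05.

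Members of different protein families correlated across the arrays. After each gene was centred within each array set, the Pearson correlation over 18 arrays, which share the 6 groups and are given as a description, was 0.90 for Col1a1 with Col1a2 and 0.88 for Col1a1 with Col5a1. Lox, Bgn, Dcn and Fn1 correlated among themselves at 0.57 to 0.81, with Bgn nearest to Fn1. Dcn also correlated at 0.70 with Col1a1 and at 0.76 with Col1a2. Col3a1 correlated at -0.46 with Bgn and -0.44 with Lox. Of the 45 pairs 40 were above 0 and the median was 0.54. On the 10 narrow arrays alone the median was 0.36, with 30 pairs above 0 and a lowest value of -0.62. On the 8 wide arrays alone it was 0.67, with 42 pairs above 0 and a lowest value of -0.55. Pairs of other genes were not counted.

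Some members are neighbours in the genome. Col3a1 and Col5a2 lie next to each other on chromosome 1 with 0 protein-coding genes between them in the RefSeq annotation, and correlated at 0.21. Lum and Dcn lie next to each other on chromosome 10, likewise with 0 between them, and correlated at 0.50. The lowest and the highest group were the same for both sets for Col3a1 (Pax7-/- day 0 and Pax7+/+ day 21), Lum (the same 2 groups) and Col1a2 (Pax7+/+ day 7 and Pax7+/+ day 21), and Fn1 (Pax7-/- day 7 and Pax7+/+ day 0). The span between those groups was 0.65 log2 on narrow and 3.55 on wide arrays for Col1a2, but 4.05 on narrow and 2.74 on wide arrays for Bgn, whose lowest group differed between sets, and 1.82 and 0.86 for Fn1. The sets therefore do not differ by 1 factor for all members.

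**Figure D5:**
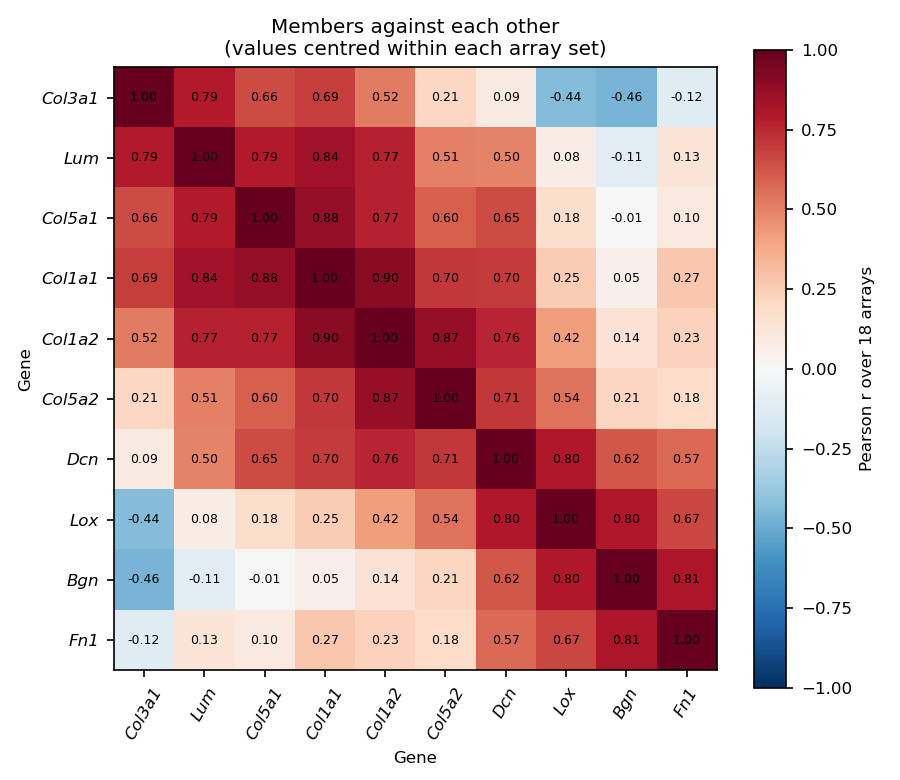
Pearson correlation (colour scale and printed value, from -1 to 1) between each pair of members over 18 arrays after centring within each array set, with genes on both axes. The collagen genes and Lum correlate positively with each other (lowest 0.21, Col3a1 with Col5a2), as do Lox, Bgn and Fn1 (0.67 to 0.81), and Dcn is above 0 with all 9 others (lowest 0.09, with Col3a1).

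Outside the list, the genes most like the mean of the 10 members by the same measure were Cd55 (0.9), Fosb (0.898), Ifi35 (0.879), Junb (0.879), Agap1 (0.858), Fosl2 (0.856), Lmo4 (0.855) and Nr4a1 (0.849). Gene by gene, the nearest non-member was Postn, the matrix gene of periostin, for Col1a1 (0.916), Junb for Col1a2 (0.941), the myosin light chain gene Myl3 for Col3a1 (0.955), Dysf for Col5a1 (0.894) and Vcam1 for Col5a2 (0.940). For Lox it was S100a6 (0.971), for Dcn Fosb (0.885), for Bgn Gsto1 (0.953), for Lum the heart factor gene Tbx20 (0.958) and for Fn1 Plpp3 (0.893). With 18 arrays and 22180 genes some high values are found for any gene.

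Some genes of the enzymes and chaperones that make procollagen rose from day 0 to day 7. Of 15 measured genes of procollagen modification and folding, 9 rose, 0 fell and 6 did not pass over this step in Pax7+/+, where 2.54% of all genes rose, and 4 rose, 0 fell and 11 did not pass in Pax7-/-, where 2.05% of all genes rose. Plod2, a lysyl hydroxylase, rose by 2.79 ± 0.23 and 1.81 ± 0.23 in the 2 genotypes (adjusted p = 2.64e-06 and 0.000193). P4ha1, a prolyl hydroxylase subunit, rose by 2.39 ± 0.23 and 1.86 ± 0.22 (adjusted p = 9.86e-06 and 0.000132), and Serpinh1, the collagen chaperone Hsp47, by 1.41 ± 0.14 and 1.42 ± 0.13. The median of the list was 0.67 and 0.32. At day 21, 4 of the 15 were lower in Pax7-/- and 0 higher, namely Serpinh1 (-0.94 ± 0.14), Plod2 (-1.30 ± 0.23), P4ha1 (-1.17 ± 0.23) and Plod1 (-0.76 ± 0.21). Of all genes 1.07% were lower and 3.82% higher there. At day 0, 1 of the 15 was higher in Pax7-/- (P4hb, 0.80 ± 0.17, adjusted p = 0.0287) and 0 lower, where 0.388% of all genes were higher. From day 7 to day 21 in Pax7+/+, 1 of the 15 rose (Serpinh1, 0.50 ± 0.14) and 1 fell (Crtap), where 1.37% of all genes rose and 4.48% fell. In Pax7-/- 0 of the 15 passed by limma over that step, 2 at an unadjusted p under 0.05, where 0.834% of all genes passed.

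Of 10 measured genes of procollagen trimming and further lysyl oxidases, 4 fell and 0 rose from day 0 to day 7 in Pax7+/+ and 1 fell in Pax7-/-. Over this step 3.14% of all genes fell in Pax7+/+ and 1.82% in Pax7-/-. Pcolce, which enhances procollagen trimming, fell by 1.12 ± 0.20 and 0.87 ± 0.20 in the 2 genotypes (adjusted p = 0.00358 and 0.0227). The lysyl oxidase relatives Loxl3 (-1.80 ± 0.42) and Loxl1 (-1.17 ± 0.33) and the protease gene Tll1 (-1.16 ± 0.31) fell in Pax7+/+. Of the 10, 0 passed by limma from day 7 to day 21 in either genotype, also at an unadjusted p under 0.05, and 0 between genotypes at any day, where 1, 0 and 1 had an unadjusted p under 0.05 at days 0, 7 and 21.

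Further collagens and proteoglycans were read from 3 lists. Of 6 further fibrillar collagen genes Col27a1 passed, rising from day 0 to day 7 in Pax7+/+ (0.57 ± 0.15, adjusted p = 0.0391) and lower in Pax7-/- at day 21 (-0.57 ± 0.15, adjusted p = 0.0423). Of 11 measured genes of fibril-associated and beaded collagens, Col12a1 (1.00 ± 0.23, adjusted p = 0.0185) and Col6a1 (1.17 ± 0.30, adjusted p = 0.0297) rose from day 7 to day 21 in Pax7+/+, where 1.37% of all genes rose. Col12a1, whose product lies on collagen I fibrils, fell before that from day 0 to day 7 (-0.83 ± 0.23, adjusted p = 0.0498) and was lower in Pax7-/- at day 21 (-0.88 ± 0.23, adjusted p = 0.04). Of 13 other small leucine-rich proteoglycan genes Prelp passed, rising from day 7 to day 21 in Pax7+/+ by 1.69 ± 0.39 (adjusted p = 0.0168).

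Among 10 fibronectin and collagen receptors, Itga5, the main fibronectin receptor chain, was lower in Pax7-/- at day 0 (-0.75 ± 0.15, adjusted p = 0.0204) and at day 21 (-0.95 ± 0.15, adjusted p = 0.00189). Ddr2, a receptor for fibrillar collagen, fell by 1.2 ± 0.22 from day 0 to day 7 in Pax7+/+ (adjusted p = 0.0039). Itga2 fell there too, 2 of 10 in all, where 3.14% of all genes fell. The genotype difference of Itgb1, the chain that pairs with Itga5, changed by 1.02 ± 0.25 from day 0 to day 21 (adjusted p = 0.0463). Ddr1 rose from day 0 to day 7 in Pax7-/- (0.71 ± 0.17, adjusted p = 0.0264). Of 12 measured elastic fibre genes, Fbln2 (-2.66 ± 0.41, adjusted p = 0.000967) and Ltbp2 (-1.68 ± 0.40) fell and Mfap4 (0.86 ± 0.23) rose from day 0 to day 7 in Pax7+/+, and Fbln1 rose in Pax7-/- (0.72 ± 0.17). Over this step 3.14% of all genes fell and 2.54% rose in Pax7+/+, and 2.05% rose in Pax7-/-.

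Of 10 measured TGF-beta pathway genes, Ccn2, a matrix-associated target of the pathway, had genotype differences of the same signs as Dcn with smaller errors, and passed at each day. It was lower in Pax7-/- at day 0 (-0.97 ± 0.12, adjusted p = 0.000603), higher at day 7 (0.70 ± 0.12, adjusted p = 0.0137) and lower at day 21 (-0.87 ± 0.12, adjusted p = 0.00055). Its genotype difference changed by 1.68 ± 0.17 and by -1.58 ± 0.17 over the 2 steps (adjusted p = 0.00016 and 0.0011). The receptor gene Tgfbr2 rose from day 7 to day 21 in Pax7+/+ by 1.66 ± 0.32 (adjusted p = 0.00494), and from day 0 to day 7 the ligand gene Tgfb2 rose in Pax7-/- (1.07 ± 0.25, adjusted p = 0.0243). The matrix gene Tgfbi, named for its induction by the pathway, rose over that step in both genotypes (1.63 ± 0.42 and 1.65 ± 0.42, adjusted p = 0.033 and 0.0359), and Tgfb1 fell in Pax7+/+ (-0.86 ± 0.23, adjusted p = 0.0351). None of these lists was tested as a list.

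Some markers of fibroblasts and mesenchyme changed over the first step, in both directions. From day 0 to day 7 in Pax7+/+, 4 of 11 fell (Cdh11 by 1.27 ± 0.17, Thy1 by 1.64 ± 0.27, Prrx1 by 1.51 ± 0.28 and Vim by 0.91 ± 0.15) and Pdgfra rose (1.41 ± 0.30). Of all genes 3.14% fell and 2.54% rose there. In Pax7-/- 2 of the 11 rose (Cdh11, 1.24 ± 0.17, and Pdgfra, 1.81 ± 0.29) and 0 fell, where 2.05% of all genes rose. The mean of the list went from 6.24 and 6.34 to 5.97 on the narrow and from 7.07 to between 6.30 and 6.38 on the wide arrays of Pax7+/+, and from between 6.0 and 6.04 to between 6.26 and 6.29 and from 6.34 to 6.81 in Pax7-/-. At day 21 it was 6.14 to 6.15 (narrow) and 6.52 (wide) in Pax7+/+ and 6.06 (narrow) and 6.41 to 6.74 (wide) in Pax7-/-. Between genotypes Cdh11 was lower in Pax7-/- at day 0 (-0.93 ± 0.17) and higher at days 7 and 21 (1.58 ± 0.17 and 0.69 ± 0.17), and Pdgfra was lower at day 21 (-1.26 ± 0.30), after a rise from day 7 to day 21 in Pax7+/+ (1.18 ± 0.30). Of the 11 markers, 7 read above the array median on all 6 arrays of day 0 (Pdgfra, Pdgfrb, Thy1, Twist1, Prrx1, Cdh11 and Vim). Twist2, Tcf21, S100a4 and Fap, of the same list, did not. The part of these cells in the results was not tested, and in such bulk samples fewer cells of a type and less RNA per cell cannot be told apart.

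Some smooth muscle markers, genes of cells that also make collagen, changed as well. Acta2 fell by 2.06 ± 0.24 and Tagln by 1.39 ± 0.18 from day 0 to day 7 in Pax7+/+ (adjusted p = 6.52e-05 and 0.000205), as did Cnn1, 3 of 6 in all, where 3.14% of all genes fell. From day 7 to day 21 Acta2 rose by 1.57 ± 0.24 (adjusted p = 0.000943), where 1.37% of all genes rose. In Pax7-/- 0 of 6 passed by limma over either step, 0 and 1 at an unadjusted p under 0.05. Of all genes 3.86% and 0.834% passed over these steps in Pax7-/-. The part of these cells was not tested. Of 9 measured markers of bone and cartilage cells, Sp7, Bglap, Ibsp and Matn1 were below the array median on all 18 arrays. Acan was below it on 17 and Comp on 10, but Alpl, Sox9 and Col2a1 on 0 of 18. Sox9 passed as higher in Pax7-/- at day 21, where 3.82% of all genes were higher. Alpl passed as fallen from day 7 to day 21 in Pax7+/+, where 4.48% of all genes fell.

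For 3 members a second probe set of lower mean was deposited. For Col1a2 it gave 0.19 on narrow and 2.22 on wide arrays for day 21 minus day 7 in Pax7+/+, against 0.64 and 3.55 for the one used. For Bgn it gave -0.46 and -2.42 for day 7 minus day 0 in Pax7+/+, against -3.35 and -2.74. For Col5a1 its values stand beside the results above.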

How the data were processed

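RNA was measured on 18 Affymetrix arrays. The authors deposited 1 log2 intensity for each probe set and array. RMA and Partek are named in the submitters' processing notes, with neither a version nor an order. Whether all arrays were summarised together, and the genome build, are not given in the sources used here. The platform annotation gave 1 symbol for 23521 of the 41345 probe sets, several for 1814 and none for 16010, and symbols were updated by gene identifier. An array was wide where its SD over probe sets was above 1.6, otherwise narrow. The fit used limma 3.58.1 under R 4.3.3 (6 group means, the array set as a fixed block, 11 residual degrees of freedom, eBayes without trend). An exact permutation test of 3 arrays against 3 cannot give a p below 0.1, and the number of arrays limits the precision. The code was tested on simulated data. The members, lists and markers were chosen with earlier results of these data known. The rule for named genes took all members, up to 4 genes of each of 8 pathway lists with the lowest adjusted p among those that passed, the 8 genes most like the mean of the members, and the nearest member and non-member of each member. Plod1, Crtap, Itga2 and Tgfb1 fall outside it and were named after their values were seen. Markers of 8 cell types were looked up. Alternatives were the fit without the block, a replicate block, 3 other scalings, a filter, other probe set and limma options, each set alone, and each array left out. Summaries and plots used Python 3.11.15 with matplotlib 3.10.9.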

Additional observations from a re-analysis of the deposited data

Results flagged for a closer look

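The genotype difference of Dcn changed between days, by 2.08 log2 from day 0 to day 7 and by -2.27 log2 from day 7 to day 21, each by a limma test of the change itself (adjusted p = 0.0426 and 0.025). It is given here because the effect of genotype differed between time points. Both changes had the same sign on narrow and on wide arrays alone, and neither passed without the array set as a block (1.47 and -1.07, adjusted p = 1 and 0.641). In the fit without that block 0 of all 22180 genes passed for either change.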

How the results depend on the processing

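Counts of members that passed are given per comparison, in the order genotype at days 0, 7 and 21, day 0 to day 7 in Pax7+/+ and Pax7-/-, day 7 to day 21 in Pax7+/+ and Pax7-/-, and change of the genotype difference over the first step, the second and both. They were 1, 0, 2, 4, 2, 4, 0, 1, 1 and 0. Without the array set block all were 0. Of all 22180 genes, 15 then passed for the first step in Pax7+/+. For the second step 5 passed in Pax7+/+ and 3 in Pax7-/-, and 0 passed in each other comparison. With a replicate block within each day, the second change of the genotype difference was 0 (Dcn -2.17, adjusted p = 0.0791), and the block moved no other count by over 1.5 times, while Col1a2 (first step, Pax7+/+), Col3a1 (first step, Pax7-/-) and Lum (second step, Pax7+/+) passed (adjusted p = 0.0471, 0.028 and 0.0107). Deviations of same-numbered arrays of the 2 genotypes correlated at -0.215 to 0.231, which cannot settle whether the numbers pair the samples. After quantile normalization the genotype count at day 0 was 3, the first step in Pax7-/- 4 and the second change 2, and after scaling to the same SD and median these were 2, 4 and 2. With probe sets averaged the genotype count at day 21 was 1. At an adjusted p under 0.01 the genotype counts at days 0 and 21 were 0, the first step in Pax7-/- 1 and both stepwise changes 0. On narrow arrays alone (4 residual degrees of freedom) the genotype count at day 0 was 4, the first step in Pax7-/- 1 and the second step in Pax7+/+ 2. On wide arrays alone (2 residual degrees of freedom) the genotype counts were 2, 1 and 4, the first step in Pax7+/+ 7, the second step 8 in Pax7+/+ and 1 in Pax7-/-, and the stepwise changes 2 and 3, while Fn1 at day 0, Col5a1 and Dcn at day 21 and both changes of Dcn did not pass (adjusted p = 0.076, 0.0944, 0.0801, 0.169 and 0.104). With 1 array left out the counts ranged, in the order above, over 0 to 2, 0 to 1, 0 to 3, 4 to 6, 1 to 3, 4 to 6, 0 to 0, 0 to 2, 0 to 2 and 0 to 0. No called member changed direction under these alternatives. Median centring, the trend option and the filter moved no count by over 1.5 times, and the filter left out Lum. For these alternatives, the fit without the block aside, the share of all genes that passed was not counted. A higher or lower count is therefore not a stronger or weaker result for the members. The cause of the shifts in these counts was not tested. Lum, below the array median on 16 of 18 arrays, is limited by its low signal.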

Other observations

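Markers of other cell types moved over the same days. Of 7 parietal endoderm markers, 6 rose from day 0 to day 7 in each genotype, among them Lama1 (4.5 ± 0.20 in Pax7+/+ and 2.20 ± 0.20 in Pax7-/-) and Sparc (1.3 ± 0.12 and 0.89 ± 0.12), whose product binds collagen. Over this step 2.54% of all genes rose in Pax7+/+ and 2.05% in Pax7-/-. At day 0, 4 of the 7 markers were higher in Pax7-/-, where 0.388% of all genes were higher. At day 21, 3 of the 7 were lower, where 1.07% of all genes were lower. Of 6 visceral endoderm markers 2 rose from day 0 to day 7 in each genotype, Cubn and Amn in Pax7+/+ and Afp and Apoa1 in Pax7-/-. Of 6 stem cell markers 1 fell over that step in Pax7+/+ and 4 in Pax7-/-, where 3.14% and 1.82% of all genes fell. Of 6 neural markers Sox1 (2.19 ± 0.26) and Pax6 (0.85 ± 0.18) rose from day 7 to day 21 in Pax7-/-, where 0.455% of all genes rose. In Pax7+/+ 0 neural markers passed by limma over this step, 2 at an unadjusted p under 0.05, where 5.85% of all genes passed. The 5 endothelial markers gave 50 tests over the 10 comparisons, of which 0 passed by limma and 7 had an unadjusted p under 0.05.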
